A study of Mus musculus with 11 samples.

Results

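The 10 genes described here encode axonemal dynein heavy chains, the motor subunits of the dynein arms of cilia and of the sperm flagellum. They were taken from the count table by their Ensembl identifiers and GENCODE symbols, and were chosen with earlier results of these data known. They are Dnah1, Dnah2, Dnah3, Dnah5, Dnah6, Dnah8, Dnah9, Dnah10, Dnah12 and Dnah17, which make 10 of the 23074 genes in the table, and all 10 passed the filter on low counts. RNA of decapsulated testes was sequenced from 5 wild type (WT) and 6 Rfx2-/- mice at postnatal day 21 (P21), all of a mixed C57BL/6, 129/Sv and FVB/N background. In the Rfx2-/- mice exon 7 of Rfx2 had been removed in all tissues by breeding to a strain with Cre under the actin promoter, and WT mice carry the intact gene. The mixed background line that the study describes keeps a neomycin cassette at the locus, with littermates as controls where they could be had. Each library is 1 mouse, and mice keep the replicate numbers of the labels, 1 to 5 for WT and 6 to 11 for Rfx2-/-. In mice of this age the first wave of spermatogenesis has just begun to yield haploid cells.

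Axonemal dyneins slide the outer microtubule doublets of the axoneme past each other, and each heavy chain holds the ring of ATPase domains and the stalk that grips the neighbouring microtubule. Outer arms set the power of the beat, and in sperm their heavy chains are mainly DNAH8 and DNAH17, whereas DNAH5 and DNAH9 are known from the outer arms of motile cilia in airway and ependyma. Inner arms shape the waveform. DNAH2 and DNAH10 together form the double-headed inner arm dynein called f or I1, and DNAH1, DNAH3, DNAH6 and DNAH12 belong to single-headed inner arms. RFX transcription factors bind an inverted repeat, the X-box, in promoters of many ciliary genes.

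Dnah10 was the only member called in Rfx2-/- testis, and it was 7.99-fold lower. Its gene (ENSMUSG00000038011) lies on the plus strand of chromosome 5 of GRCm38, from 124725085 to 124834308. Dnah6 (ENSMUSG00000052861, minus strand of chromosome 6, from 73017606 to 73221651) was the other member with a lower value, while the remaining 8 had fitted values above 0 that did not pass the test. The promoters of Dnah10, of Dnah6 and of Dnah2, whose protein pairs with DNAH10, are shown because the comparison turns on these genes. Each line runs 5′ to 3′ from 100 bases before to 20 bases after the RefSeq start site (GRCm38.p6). Capitals mark the X-box half-site GTTGCC in Dnah10 and, in Dnah6, an inverted repeat of the form GTTGCNNNGCAAC.
Dnah10, plus strand, chr5:124724985-124725104: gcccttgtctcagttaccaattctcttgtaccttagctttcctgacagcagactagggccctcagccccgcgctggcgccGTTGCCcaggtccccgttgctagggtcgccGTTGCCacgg
Dnah6, minus strand, chr6:73221612-73221731: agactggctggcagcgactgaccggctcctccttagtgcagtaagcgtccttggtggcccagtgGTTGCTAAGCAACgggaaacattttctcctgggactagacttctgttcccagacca
Dnah2, minus strand, chr11:69549089-69549208: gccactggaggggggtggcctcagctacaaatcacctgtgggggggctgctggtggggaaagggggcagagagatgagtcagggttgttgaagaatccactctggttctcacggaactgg

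RefSeq windows of 300 bases, 250 before and 50 after the start site, were at hand for 9 of the 10 members, all but Dnah3. The X-box, searched by name on both strands with a spacer of 0 to 3 bases, was in none of the 9 and in 1.53% of all 32851 windows. The half-site GTTGCC, searched on either strand, was in 12.5% of all windows and in 1 member, Dnah10. Dnah10 has it on the plus strand from position -20 to -15 and from position 11 to 16, counted from the start site. Of all windows, 1.02% hold at least 2 copies. The form GTTGCNNNGCAAC, searched after the Dnah6 sequence had been seen, lies from position -36 to -24 of Dnah6 and in no other member window, against 0.225% of all windows. These are matches of letters only.

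Expression is given as CPM, read counts scaled to library size with TMM factors from edgeR, or, to compare genes with each other, as RPKM, CPM per kilobase of merged exons of protein coding transcripts (GENCODE M21). These merged exons are between 12009 nt (Dnah12) and 17617 nt (Dnah8) long. In 9 members none of the 50-nt windows of their coding transcripts occurs in a transcript of another gene, and in Dnah9 1 of 14622 windows does. Exons of other genes cover 1506 nt of Dnah3 (Lyrm1) and 93 nt of Dnah17 (Pgs1) on the opposite strand. The authors left out reads that fall on exons of more than 1 gene, which covers these overlaps only if strand was ignored. Antisense transcripts that are not in the count table cover between 111 nt (Dnah10, Gm43777) and 551 nt (Dnah1, Gm35823) of a member, and whether the counting used strand is not given in the sources used here.

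The libraries held between 22232097 and 29769483 counts. A count of 3, taken as the floor, is between 0.0852 and 0.139 CPM, and this covers counting error only. Rfx2, counted over all its exons, had 191 to 472 CPM in WT and 282 to 324 CPM in Rfx2-/- testis, so a count of the whole gene does not show the loss of exon 7. Scores of early meiotic, spermatogonium, Sertoli, Leydig and macrophage markers, all of which passed the filter, differed between genotypes by 0.06, -0.30, -0.30, -0.53 and -0.41. The Sertoli score had an exact permutation p of 0.0216 (adjusted p = 0.0866 over 8 marker lists) with all 9 markers below 0 and none called, and 1 of 7 Leydig markers was called lower. Germ cell stage markers differed among mice of the same genotype. A score of 17 round spermatid markers (mean log2 CPM) ranged from -1.53 in WT mouse 5 to 4.88 in WT mouse 1, and from 0.626 to 5.10 in Rfx2-/- testis. The genotype means differed by 1.31 (two-sided exact permutation test, p = 0.320, adjusted p = 0.427 over 8 marker lists, for 5 against 6 mice). A score of 10 pachytene spermatocyte markers ranged from 6.80 to 8.25 in WT and from 8.12 to 8.49 in Rfx2-/- testis, a difference of 0.67 (exact p = 0.0216, adjusted p = 0.0866), and all 10 markers had fitted values above 0. The smallest p this test allows is 0.00433. In whole testis, fewer cells of a type and less RNA per cell cannot be told apart.

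**Figure D1:**
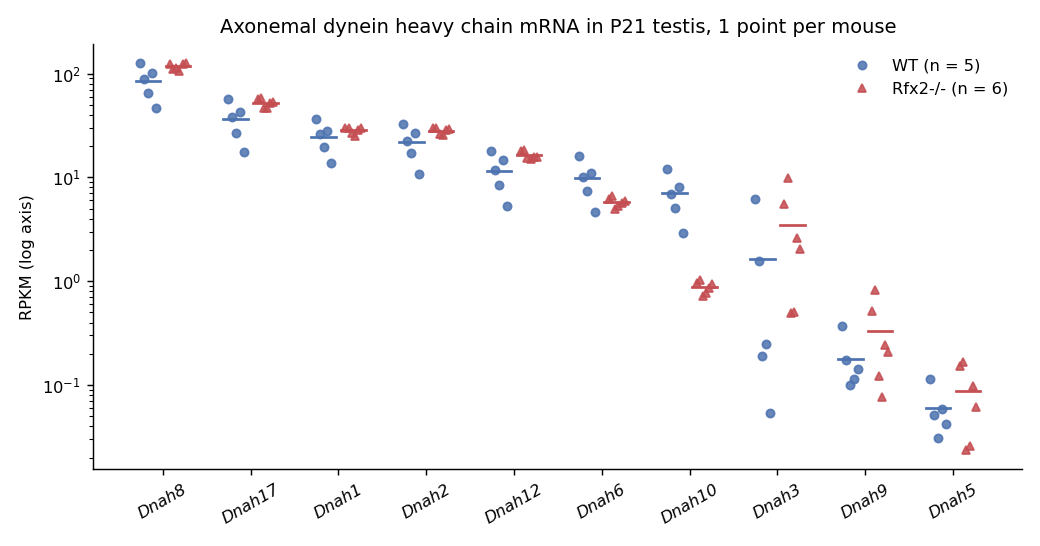
RPKM (log axis) of the 10 heavy chains in each mouse, with WT as circles (n = 5), Rfx2-/- as triangles (n = 6) and horizontal lines for the means. Dnah10 is the only member in which the genotypes do not overlap, and WT mice spread more widely than Rfx2-/- mice for the 7 members with the highest WT means.

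In WT testis the level per length fell from Dnah8, with 85.3 ± 30.7 RPKM (SD, n = 5), through Dnah17 (36.4 ± 15.3), Dnah1 (24.8 ± 8.53), Dnah2 (21.97 ± 8.53), Dnah12 (11.6 ± 5.00), Dnah6 (9.81 ± 4.26) and Dnah10 (7.02 ± 3.46) to Dnah3 (1.64 ± 2.58), Dnah9 (0.180 ± 0.109) and Dnah5 (0.0596 ± 0.0326). The ranges of all neighbours in this order overlapped. Within single mice the order was firmer, since each gene lay above the next in all 5 WT mice, except Dnah3 over Dnah9, which held in 4. The chains that make up the outer arms of sperm were thus at the top and those of airway outer arms at the bottom of the order. In Rfx2-/- testis Dnah10 had 0.878 ± 0.116 RPKM (SD, n = 6), and its mean moved from place 7 to place 8 of the 10, below Dnah3 with 3.51 ± 3.62 RPKM. Dnah3 lay above Dnah10 in 4 of the 6 Rfx2-/- mice, and their ranges overlapped. Dnah1 and Dnah2 did not differ beyond their spread there, with 25.2 to 30.2 and 25.8 to 29.9 RPKM.

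The question behind the comparison of genotypes is which genes need RFX2 during the first wave of spermatogenesis. Dnah10 had 171, 97.6, 71.8, 113 and 40.6 CPM in WT mice 1 to 5, and 13.5, 14.4, 10.1, 10.9, 11.95 and 13.1 CPM in Rfx2-/- mice 6 to 11. Each Rfx2-/- mouse lay below each WT mouse, and the WT mice spread over a 4.21-fold range against 1.42-fold in Rfx2-/- testis. The means were 98.6 ± 48.6 CPM (SD, n = 5) and 12.3 ± 1.63 CPM (SD, n = 6), a log2 change of -2.998 ± 0.30 (SE), with an adjusted p of 0.000203 (quasi-likelihood test of edgeR, Benjamini-Hochberg over all tested genes). A gene was called at an adjusted p of at most 0.01. By this rule 1 of the 10 members was lower, against 1.94% of all tested genes, and with a fold change of more than 2 as well it was again 1, against 1.04%. At an adjusted p of at most 0.05 it was 1 as well, against 8.78%, as it was with DESeq2 (5.75%) and with total counts as library sizes (2.76%). Among all tested genes, 5.2% had every Rfx2-/- mouse below every WT mouse. Between 219 and 349 reads were counted on Dnah10 in each Rfx2-/- mouse, so the remaining transcript was far above the floor.

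Dnah2 (minus strand of chromosome 11, from 69420809 to 69549110), which encodes the partner of DNAH10 in dynein f, did not follow it. It had 459, 309.9, 241, 373 and 149.6 CPM in WT mice 1 to 5, and 413, 417, 369, 360.5, 396 and 408 CPM in Rfx2-/- mice 6 to 11. The Rfx2-/- mice all lay within the WT range (log2 change 0.36 ± 0.23 SE, edgeR adjusted p = 0.234). Dnah10 reached between 27.1% and 37.1% of the CPM of Dnah2 in the same mouse in WT (mean 31.1 ± 3.71, n = 5), and between 2.75% and 3.45% in Rfx2-/- testis (mean 3.12 ± 0.246, n = 6).

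Dnah6 encodes an inner arm heavy chain. It had 202, 127, 93.0, 141 and 58.2 CPM in WT mice 1 to 5, and 78.3, 83.7, 62.9, 66.6, 71.8 and 75.6 CPM in Rfx2-/- mice 6 to 11. The Rfx2-/- mice were below 4 of the WT mice and above WT mouse 5, which had the lowest pachytene and round spermatid scores. The means were 124 ± 54.0 CPM (SD, n = 5) and 73.2 ± 7.65 CPM (SD, n = 6), and the difference did not pass the test (log2 change -0.76 ± 0.25 SE, edgeR adjusted p = 0.0571). It passed with the pachytene score as a covariate (log2 change -1.27, adjusted p = 9.0e-05 from edgeR), with the round spermatid score (-0.90, adjusted p = 0.00284) and in limma voom (-0.84, adjusted p = 0.00203). Under these 3 settings 2 of the 10 members, Dnah6 and Dnah10, were called lower, against 4.36%, 4.7% and 4.33% of all tested genes. The pachytene score was itself higher on average in Rfx2-/- testis, with 8.12 to 8.49 against 6.80 to 8.25 in WT. A fit with it does not fully part score from genotype.

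The outer arm chains Dnah8 (plus strand of chromosome 17, from 30624354 to 30877365) and Dnah17 (minus strand of chromosome 11, from 118021723 to 118130634) were the most abundant members in both genotypes. Dnah8 had 2212, 1567, 1155, 1766 and 817 CPM in WT mice 1 to 5, and 2187, 1967, 2008, 1853, 2198 and 2206 CPM in Rfx2-/- mice 6 to 11. WT mouse 1 lay above all Rfx2-/- mice and the other WT mice below all of them (log2 change 0.46 ± 0.22 SE, edgeR adjusted p = 0.128). For Dnah17 the WT values were 867.6, 571, 401, 642 and 267 CPM, and the Rfx2-/- values were 849, 875, 697, 696, 793 and 805 CPM (log2 change 0.52 ± 0.25 SE, edgeR adjusted p = 0.133). The inner arm genes Dnah1, which had 177 to 466 CPM in WT and 324 to 389 CPM in Rfx2-/- testis, and Dnah12, with 63.0 to 215 and 179 to 221 CPM, had log2 changes of 0.20 and 0.49 (adjusted p = 0.458 and 0.160). In all 4 genes, as in Dnah2, the genotypes overlapped and the WT mice were the more widely spread.

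No member was called higher by edgeR, against 0.73% of all tested genes (0.216% with a fold change of more than 2), and none of those with positive values had an unadjusted p under 0.05. None was called higher at an adjusted p of at most 0.05 (6.15% of all genes), with total counts (0.616%) or with the pachytene score (0.965%), and none had every Rfx2-/- mouse above every WT mouse (6.5%). DESeq2 and voom also called 0 higher, against 7.18% and 2.33% of all genes, with 3 and 4 members at an unadjusted p under 0.05, beside 22.6% and 17.2% of all genes. With the round spermatid score as a covariate edgeR called 1 member, Dnah3, higher (2.64% of all genes). The median log2 change of the 10 members was 0.48, with 2 below and 8 above 0, beside a median of -0.05 over all tested genes. Scaling by total counts moved the median of all genes to -0.22 and left the sign of every member as it was. With the pachytene score as a covariate, Dnah1, Dnah2, Dnah3, Dnah5 and Dnah12 changed sign, to -0.22, -0.10, -0.61, -0.16 and -0.045, and Dnah8 and Dnah17 came to 0.04 and 0.01, none of them called. That score had a higher mean in Rfx2-/- testis, so these values do not fully part score from genotype.

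**Figure D2:**
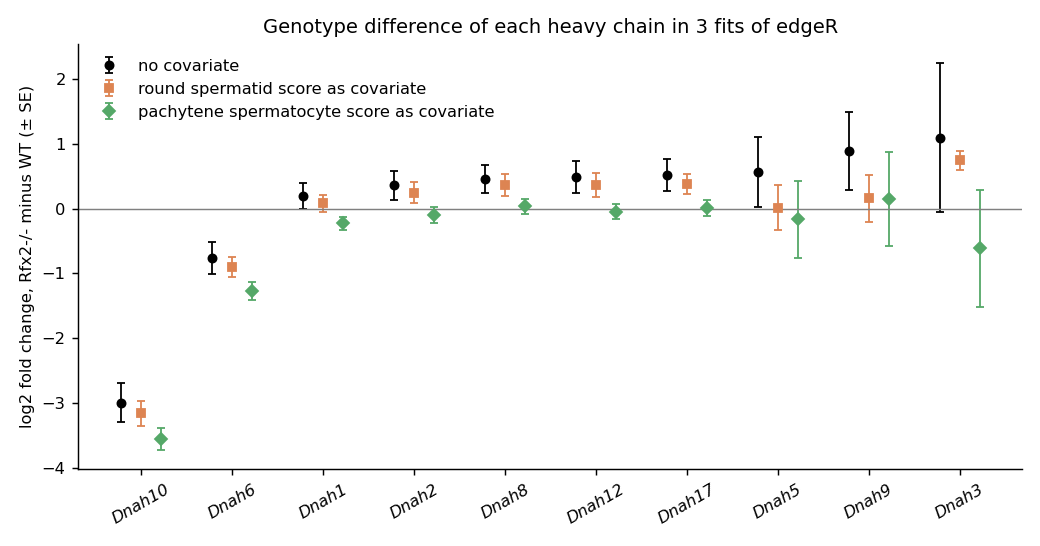
Log2 change (Rfx2-/- minus WT, ± standard error) of each member in edgeR without a covariate, with the round spermatid score and with the pachytene spermatocyte score, each from 5 WT and 6 Rfx2-/- mice. Dnah10 stays between -3.56 and -2.998 and Dnah6 between -1.27 and -0.76, while with the pachytene score Dnah1, Dnah2, Dnah8, Dnah12 and Dnah17 lie between -0.22 and 0.04.

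The WT mice fell in the same order, mice 1, 4, 2, 3 and 5 from high to low, for 7 of the 10 members: Dnah1, Dnah2, Dnah6, Dnah8, Dnah10, Dnah12 and Dnah17. This was also the order of their pachytene scores. Among the Rfx2-/- mice 0 of the 10 members had the order of the pachytene scores, which was 7, 6, 10, 8, 11 and 9. WT mouse 1 was the highest for all 10 members and WT mouse 5 the lowest for 8. In Rfx2-/- testis, mouse 7 was the highest for 9 members, Dnah8 being the exception. The part of germ cell stage in these values was not tested apart from the covariate fits given above.

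Dnah3, an inner arm gene, varied most among mice of 1 genotype. It had 85.9, 22.1, 2.67, 3.50 and 0.754 CPM in WT mice 1 to 5, a 114-fold range. In Rfx2-/- mice 6 to 11 it had 78.2, 138, 6.94, 7.02, 36.2 and 28.6 CPM, a 19.9-fold range. The genotypes overlapped (log2 change 1.10 ± 1.15 SE, edgeR adjusted p = 0.470), and without WT mouse 1 the log2 change was 2.76 (adjusted p = 0.0691). The WT order of Dnah3 was that of the round spermatid score, mice 1, 2, 4, 3 and 5. With that score as a covariate, its standard error fell to 0.15 and it was called higher (log2 change 0.75, adjusted p = 0.00600). With the pachytene score it was -0.61 (adjusted p = 0.752), so its direction depended on the score used.

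Dnah9 and Dnah5, known from motile cilia outside the testis, were the least abundant members. Dnah9 had 1.45 to 5.36 CPM in WT and 1.11 to 12.1 CPM in Rfx2-/- testis (log2 change 0.89 ± 0.60 SE, edgeR adjusted p = 0.265). Dnah5 had 0.483 to 1.797 and 0.370 to 2.60 CPM, from 17 to 51 and 8 to 63 reads per mouse (log2 change 0.57 ± 0.54 SE, edgeR adjusted p = 0.429). In both genes Rfx2-/- mice 6 and 7, with the highest round spermatid scores of that genotype, had the highest values. Among 7 markers of multiciliated cells, which could reach the sample from the ducts, Mcidas, Gmnc and Sec14l3 had at most 0.283, 0.211 and 0.176 CPM in any mouse. Foxj1 and Deup1 reached 79.6 and 96.5 CPM, and the summed level of the list was 17.5 to 188 CPM in WT and 27.2 to 171 CPM in Rfx2-/- testis. Ccno had 2.36 to 3.88 CPM in WT and 1.49 to 2.30 CPM in Rfx2-/- testis, and Cdc20b had 2.89 to 7.61 and 5.07 to 6.07 CPM. The score of this list, which rests on the 4 markers that passed the filter, without Mcidas, Gmnc and Sec14l3, followed the order of the round spermatid score in both genotypes.

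**Figure D3:**
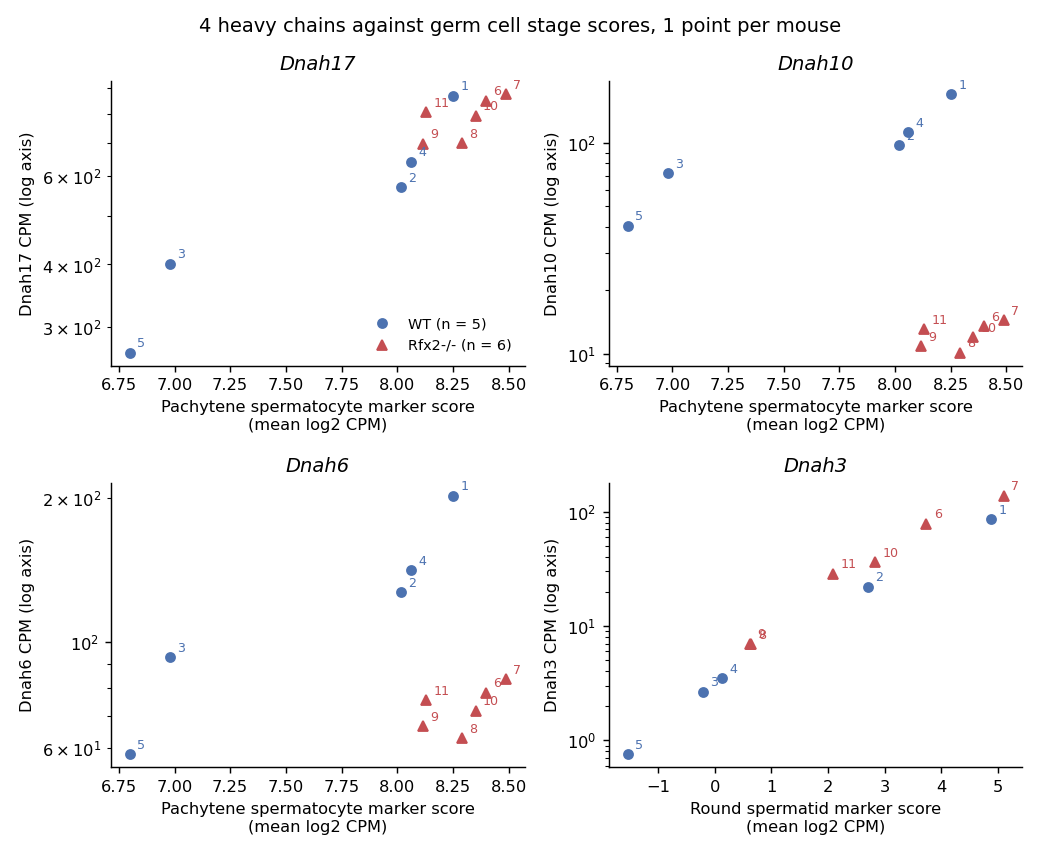
CPM (log axis) of Dnah17, Dnah10 and Dnah6 against the pachytene spermatocyte score, and of Dnah3 against the round spermatid score (mean log2 CPM of the markers), with 1 point per mouse and the replicate number beside it. Rfx2-/- mice lie far below WT mice of similar score for Dnah10 (10.1 to 14.4 CPM) and lower for Dnah6 (62.9 to 83.7 CPM). The CPM ranges of the genotypes overlap for Dnah17 and Dnah3. With the round spermatid score as a covariate, Dnah3 was called higher in Rfx2-/- testis (log2 change 0.75, edgeR adjusted p = 0.00600).

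Dividing by another heavy chain of the same mouse compares the members without any scaling between libraries. Relative to Dnah8, which had the most reads of all members, Dnah10 was at 7.71%, 6.23%, 6.22%, 6.37% and 4.96% in WT mice 1 to 5, and at 0.504% to 0.733% in Rfx2-/- testis, and its mean was 10.6-fold lower. Dnah6 was at 9.13%, 8.11%, 8.05%, 7.99% and 7.13% in WT, and at 3.58%, 4.25%, 3.13%, 3.60%, 3.27% and 3.43% in Rfx2-/- mice 6 to 11. Its mean was 2.28-fold lower and the genotypes no longer overlapped. Dnah1 also separated, by less, with 20.3% to 21.9% in WT and 16.6% to 19.8% in Rfx2-/- testis. Dnah8 itself had a log2 change of 0.46, above that of Dnah1 (0.20), so a lower ratio need not mean a lower level. Of all other tested genes, 7.79% lay lower relative to Dnah8 in every Rfx2-/- mouse than in every WT mouse, and 0.572% lay higher. The 6 remaining members overlapped, with Dnah17 at 32.7% to 39.2% in WT and 34.7% to 44.5% in Rfx2-/- testis, Dnah2 at 18.3% to 21.1% and 18.0% to 21.2%, and Dnah12 at 7.72% to 10.1% and 8.50% to 11.2%.

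**Figure D4:**
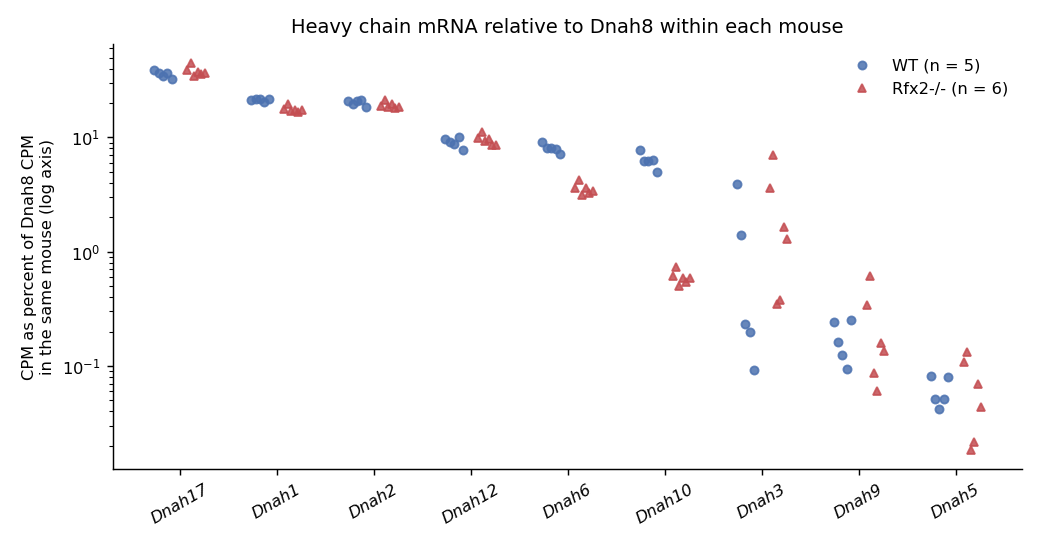
CPM of each member as a percentage of the CPM of Dnah8 in the same mouse (log axis), with WT as circles (n = 5) and Rfx2-/- as triangles (n = 6). Dnah10 (4.96% to 7.71% against 0.504% to 0.733%) and Dnah6 (7.13% to 9.13% against 3.13% to 4.25%) separate, as does Dnah1 by a small margin, and Dnah3, Dnah9 and Dnah5 scatter in both genotypes.

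Over all 45 pairs of members, the difference of their log2 CPM separated the genotypes in 18. Dnah10 was lower relative to each of the other 9 members. Dnah6 was lower relative to 5 of them, Dnah1, Dnah2, Dnah8, Dnah12 and Dnah17, and higher than Dnah10 alone, and it overlapped in the pairs with Dnah3, Dnah5 and Dnah9. Relative to Dnah17 the shift of Dnah6 was -1.27 on the log2 scale, with SDs of 0.04 in both genotypes. The other 4 pairs that separated had small shifts, with Dnah1 lower relative to Dnah2 (-0.19), Dnah8 (-0.27) and Dnah17 (-0.35), and Dnah2 lower relative to Dnah17 (-0.16). Over all pairs of tested genes, 10.7% separated the genotypes. Pairs were compared by their ranges, without a test.

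The genes whose values over the 11 mice were most like the mean standardised profile of the members were Pcsk4 (Pearson r = 0.982), Glb1l (0.981), Ttc21a (0.979), Gm5152 (0.976) and Cd55 (0.973). None of these was called (log2 changes between 0.08 and 0.42), and Gm5152 had means of only 0.337 CPM in WT and 0.442 CPM in Rfx2-/- testis. Among the members themselves r was 0.957 for Dnah1, 0.567 for Dnah6 and 0.04 for Dnah10. Each member is part of that mean, which raises its r. All points share the libraries, among which stage marker scores differ, and the values are descriptions.

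Other dynein genes were taken from lists by role. Of 7 further tested heavy chain genes, 0 were called by edgeR in either direction, and 2 were higher at an unadjusted p under 0.05. DESeq2 and voom each called 1 of them higher. Over all tested genes edgeR called 1.94% lower and 0.73% higher, DESeq2 5.75% and 7.18%, and voom 4.33% and 2.33%, and with edgeR 23.7% were lower and 18.1% higher at an unadjusted p under 0.05. With DESeq2 and voom, 21.9% and 21.8% were lower at that limit. These shares are the background for each of the lists that follow. Their log2 changes ran from -0.32 for Dnah11, the left-right and airway outer arm chain, to 0.44 for Dnhd1. Dnah7a and Dnah7b are near-identical copies, and reads that map to both would have been discarded, so their values are uncertain.

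Among 11 tested intermediate and light chains, 1 was called lower and 0 higher by edgeR, with 3 lower and 4 higher at an unadjusted p under 0.05. DESeq2 called 2 lower and 3 higher, and voom 2 and 2. Dnaic2, an intermediate chain of the outer arm, had 57.4 ± 38.4 CPM in WT (SD, n = 5) and fell to 0.945 ± 0.297 CPM (SD, n = 6, log2 change -5.91, edgeR adjusted p = 0.000148), while the outer arm heavy chains Dnah8 and Dnah17 were not called. Dnaic1, also of this list and named after its values were seen, went the other way. It had 95.6 ± 38.7 CPM in WT and 188 ± 29.0 CPM in Rfx2-/- testis (log2 change 0.98, edgeR adjusted p = 0.0309, not called). Wdr63, an intermediate chain of dynein f with DNAH2 and DNAH10, had 116 ± 45.1 CPM in WT and 251 ± 21.4 CPM in Rfx2-/- testis (log2 change 1.12, edgeR adjusted p = 0.0170), and Wdr78, named after its values were seen, another chain of the same dynein, had -0.45 (adjusted p = 0.252).

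Of 16 tested factors that assemble dynein arms in the cytoplasm before transport, 1 was called lower and 0 higher by edgeR, with 5 lower and 4 higher at an unadjusted p under 0.05. DESeq2 called 3 lower and 3 higher, and voom 5 and 2. Zmynd10 had 344 ± 128 CPM in WT (SD, n = 5) and fell to 126 ± 9.12 CPM (SD, n = 6, log2 change -1.45, edgeR adjusted p = 0.00263), and Spag1 had the highest value of this list (0.99, adjusted p = 0.0300). Of 6 tested docking genes, which anchor outer arms, 0 were called by edgeR, with 1 lower and 3 higher at an unadjusted p under 0.05. DESeq2 and voom each called 1 lower and 2 higher. The values ran from -3.99 for Armc4 (adjusted p = 0.0147) to 1.18 for Ccdc151 (adjusted p = 0.0204). The median log2 changes of these 4 lists were 0.24, -0.16, -0.07 and 0.81, beside -0.05 over all tested genes.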

How the data were processed

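Testis RNA was sequenced as single reads from 11 mice, each of them 1 sample, at P21. The deposited values are raw counts per gene, without normalization. Per the labels and the study's methods, the authors used CASAVA 1.8.2, STAR 2.4 and featureCounts 1.4.6 with GRCm38 (Ensembl), dropped reads that mapped to several places, and assigned the rest to merged exons of protein coding isoforms. Discarding such reads lowers genes with near-identical copies, and long genes such as dynein heavy chains collect more reads per transcript.

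The counts were fitted with edgeR 4.0.16 under R 4.3.3, using filterByExpr, TMM, glmQLFit and glmQLFTest without covariates, and Benjamini-Hochberg adjustment over 15745 genes. Log2 CPM used a prior count of 2. The alternatives were DESeq2's size factors, total counts, the Wald test of DESeq2 1.42.0, voom of limma 3.58.1 with quality weights, no filter beyond 1 count, other thresholds, a prior count of 0.5, the round spermatid or pachytene score as a covariate, and each mouse left out. The fit was tested on simulated data. Members, lists, markers and tests were chosen with earlier results of these data known. Named genes are all members, Rfx2, the lowest and highest log2 fold change of each list and the 5 genes most like the members. Markers of multiciliated cells, Dnah7a, Dnah7b, Lyrm1, Pgs1, Gm43777, Gm35823, Dnaic1 and Wdr78 are named outside this rule. P-values set the genotype difference against the variation between mice. Promoters came from RefSeq and positions and lengths from GENCODE M21, both on GRCm38; the authors counted on an older annotation, so lengths behind RPKM are approximate. Python 3.11.15, pandas 2.3.3, SciPy 1.17.1 and matplotlib 3.10.9 made tables and figures.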

Additional observations from a re-analysis of the deposited data

Results flagged for a closer look

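Of 24 sets of values examined, the 10 members and both stage scores in each genotype, 2 held a mouse flagged as far from the others. In both sets it was WT replicate 1. The members were examined as CPM, not on a log scale. A rate of about 1 in 20 by chance holds for independent sets with normally distributed values. These sets share mice, and Dnah3 spread over a 114-fold range in WT, so that rate does not apply to them. Dnah3 had 85.9 CPM there, against 0.754 to 22.1 CPM in the other 4 WT mice, and Dnah9 had 5.36 CPM, against 1.45 to 2.52 CPM. The same mouse had the highest round spermatid score of the WT mice, 4.88.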

How the results depend on the processing

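Dnah10 was called lower in all 18 alternatives, with log2 fold changes from -3.56 to -2.71 and adjusted p-values from 4.68e-22 to 0.00124. The number of members called lower was 1 whichever single mouse was omitted and became 2 with limma voom, with the round spermatid score and with the pachytene score as covariates, Dnah6 being added each time. The number called higher, 0, became 1 (Dnah3) with the round spermatid score. Dnah6 kept its sign in all alternatives (-1.27 to -0.52, the latter without WT replicate 1) with adjusted p-values up to 0.104. With the pachytene score, Dnah1 (-0.22), Dnah2 (-0.10), Dnah3 (-0.61), Dnah5 (-0.16) and Dnah12 (-0.045) changed sign. The cause was not tested. No alternative called another member. Without single mice, the genotype difference of the round spermatid score ranged from 0.64 to 2.23 and that of the pachytene score from 0.48 to 0.83. No paired analysis was done. The replicate numbers run on from WT to Rfx2-/- mice and name no litter, so any littermate pairs are not known here. Dnah5 and Dnah9 rest on as few as 8 and 25 reads in a mouse.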
